A study of Mus musculus with 6 samples.

Results

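The Nodal pathway genes described here are 10 genes of 22180 measured: the antagonists Lefty1 and Lefty2, the ligands Nodal and Gdf3, the co-receptor Tdgf1, the receptors Acvr1b, Acvr2a and Acvr2b, and the feedback genes Smad7 and Skil. They were listed by name, without a threshold on their values, and each was read from the array row that names it alone. Each of the 10 has 1 such row. All cells were mouse embryonic stem cells (ESCs) that lack both copies of Dgcr8, the partner of the Drosha nuclease, without which canonical miRNAs are not made. One group of 3 samples carried a control hairpin. The other group of 3 expressed miR-302 from a construct labelled sh-miR-302, which another label calls miR-302 mimics. The series' design text describes the 3 samples of each group as biologically independent. The labels used here do not say which member of the miR-302 family was expressed, from which promoter, or whether each group is 1 clone or several. The controls also lack Dgcr8, so the comparison shows what miR-302 adds to cells without canonical miRNAs, not how those cells differ from wild-type ESCs.

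Nodal is a secreted ligand of the TGF-beta superfamily. It binds type I receptors such as ALK4, encoded by Acvr1b, and type II activin receptors, encoded by Acvr2a and Acvr2b, with the help of the membrane-anchored co-receptor Cripto, encoded by Tdgf1. The receptors phosphorylate SMAD2 and SMAD3, which join SMAD4 and DNA-binding partners such as FOXH1 and switch on target genes, among them Nodal itself and Lefty1 and Lefty2. Lefty proteins block Nodal signalling from outside the cell, and SMAD7 and SnoN, encoded by Skil, dampen it from inside. In mouse ESCs the pathway is active, and in the embryo it specifies mesendoderm and the left-right axis. Lefty1 and Lefty2 are reported targets of miR-302 and of miRNAs with the same seed.

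The seed is the stretch of a miRNA, bases 2 to 8, that pairs with its targets. The mature 3p arms below are from RefSeq (build GRCm38.p6) and are shown because the miRNA that was expressed belongs to the first of these families and the cells do not make the second. The first 3 come from the miR-302 cluster on chromosome 3 and the others from the miR-290 cluster on chromosome 7, the main miRNA cluster of mouse ESCs, whose products the Dgcr8-deficient cells do not make. Capitals mark the seed.
miR-302b-3p: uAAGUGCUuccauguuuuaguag
miR-302d-3p: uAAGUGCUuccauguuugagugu
miR-302c-3p: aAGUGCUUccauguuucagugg
miR-291a-3p: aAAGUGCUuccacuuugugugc
miR-294-3p: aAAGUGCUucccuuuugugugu
miR-295-3p: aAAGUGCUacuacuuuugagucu
Of 11 3p arms matched from the 2 clusters, 5 have the seed AAGUGCU: miR-302b, miR-302d, miR-291a, miR-294 and miR-295. The 3p arm of miR-302a was not among those matched, so its seed was not read. The RefSeq entry of miR-302c starts 1 base later than those of miR-302b and miR-302d, so the same letters lie at its bases 1 to 7.

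With miR-302, Lefty1 and Lefty2 were 6.33-fold and 7.82-fold lower, the receptor gene Acvr1b was 1.52-fold lower, the ligand gene Gdf3 was 1.29-fold lower and the inhibitory SMAD gene Smad7 was 1.28-fold higher. Nodal, Tdgf1, Acvr2a, Acvr2b and Skil were not called. In all, 4 of the 10 genes were lower and 1 was higher (limma across all genes, Benjamini-Hochberg adjusted p under 0.05), where 9.25% of all genes were lower and 7.18% higher. All 10 stood above the median gene on every array, and calls were more frequent at that level. Of the 11090 genes at or above the median level, tested on their own, 2479 were lower and 1815 higher. The same fit called 4 of the 10 genes lower and 1 higher. The median log2 change of the 10 was −0.31, and that of all 22180 genes was 0.01. When each array was left out in turn, Lefty1, Lefty2 and Acvr1b were called in all 6 fits, Gdf3 in 1 and Smad7 in 2. The counts were 5 lower and 1 higher without miR-302 replicate 1, and 3 lower and 0 or 1 higher without another array.

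Levels are log2 expression after RMA, the array normalization named in the submitters' processing notes, with base 2 taken because RMA gives it. Array medians over all rows lay between 5.60 and 5.62, and only 3 arrays a group limit the precision. Over the genes analysed, the highest array median was 6.18, and a gene above that is said to lie above the median gene. In all, 3643 genes were called, 16.4% of those tested, with 5395 called when miR-302 replicate 1 was left out and 1728 to 2077 when another array was. The root mean square deviation of miR-302 replicate 1 from its group mean was 0.22 over all genes, against 0.12 to 0.15 for the other 5 arrays. Results without this array are given where it changed the call of a Nodal pathway gene or a neighbour of the Lefty pair. The same was done for the called other pathway genes and the signal carriers named below. For the markers and the Mir302 genes, no fit without it is given. None of 8 ESC markers was called, and 7 of them, including Pou5f1, Nanog and Sox2, lay above the median gene on every array. The eighth, Dppa5a, lay between 5.24 and 5.75. Between the groups, Sox2 and Zfp42 lay wholly lower with miR-302 (log2 changes −0.33 and −0.27) and Utf1 and Tdgf1 wholly higher (0.26 and 0.15). Over all genes, 19.0% lay wholly lower and 16.8% wholly higher. Of 8 trophectoderm markers, 6 were higher with miR-302, and their mean level was 6.58 to 6.75 on the control arrays, 7.83 on miR-302 replicate 1 and 8.66 and 8.67 on replicates 2 and 3. Of 8 primitive endoderm markers 4 were higher and 1 lower, of 7 mesendoderm markers 3 were higher and none lower, and of 7 fibroblast markers 1 was lower and none higher. No fibroblast marker lay above the median gene on every array, though Col1a1 fell short only in control hairpin replicate 2, at 6.13. The part of these markers in the results below was not tested. In these bulk samples, fewer cells of a type and less RNA per cell cannot be told apart. The array reads Dgcr8 together with another gene, and it was not analysed here. The 4 rows of the Mir302a to Mir302d genes were not called, with log2 changes above 0, from 0.40 for Mir302c to 0.91 for Mir302b. Mir302b stood at 4.43, 4.32 and 4.15 in the control hairpin arrays and at 4.58, 5.45 and 5.61 in the miR-302 arrays. Its groups do not overlap (limma adjusted p = 0.0585). Whether the probes of these 4 rows read the introduced miR-302 was not tested.

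**Figure D1:**
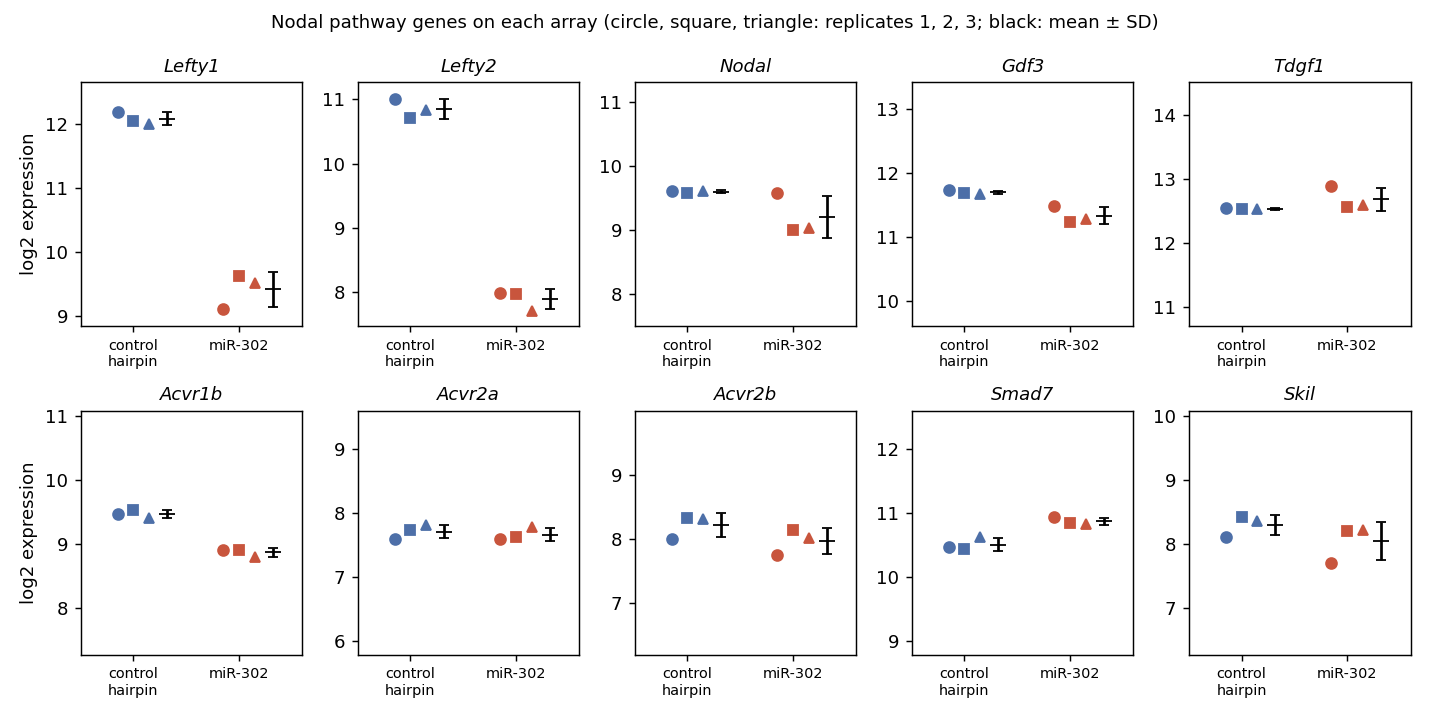
Log2 expression of the 10 Nodal pathway genes on each array (vertical axes, all spanning the same number of log2 units), with the control hairpin in blue, miR-302 in red and the mean ± SD of 3 arrays in black. Lefty1 and Lefty2 show a wide gap between groups, and in Nodal miR-302 replicate 1 sits at 9.59, beside the control arrays.

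Lefty2 stood at 11.01, 10.71 and 10.83 in control hairpin replicates 1 to 3, and at 7.98, 7.97 and 7.70 in miR-302 replicates 1 to 3. The lowest control value lay above the highest miR-302 value by far more than the spread within either group. The log2 change was −2.97 ± 0.11 (SE, n = 3 a group), with a 95% interval of −3.24 to −2.69, or 6.47-fold to 9.45-fold lower (limma adjusted p = 8.84e-05). It was the fourth largest fall of all genes tested.

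Lefty1 stood at 12.19, 12.05 and 12.00 in the control hairpin arrays and at 9.11, 9.62 and 9.52 in the miR-302 arrays. Here too the groups were widely apart, and miR-302 replicate 1 was the lowest of the 6. The log2 change was −2.66 ± 0.14 (SE; limma adjusted p = 0.000264), which ties with Igfbp7 at place 7 among the falls, and the end of its 95% interval nearest to 0 was −2.33, or 5.02-fold lower. Over the 6 fits with an array left out, the log2 change lay between −2.77 and −2.51 for Lefty1 and between −3.04 and −2.88 for Lefty2. Lefty1 minus Lefty2 was 1.23 in the control and 1.53 in the miR-302 arrays, so the change of Lefty2 was larger by 0.30. This difference did not pass a two-sided exact permutation test (p = 0.4, where 3 arrays against 3 cannot go below 0.1). The 2 genes are close copies of each other, and how far the probes of 1 also read the other was not tested.

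In the RefSeq gene table (GRCm38.p6) both genes lie on chromosome 1, with Lefty2 before Lefty1 and no other measured gene between them. Of the 4 nearest measured genes on each side, 3 were lower, none higher and 5 not called, where 9.25% of all genes were lower and 7.18% higher, and both genes that directly follow Lefty1 were among the lower. Tmem63a, which encodes a mechanically gated membrane channel, stood at 9.45, 9.34 and 9.46 in the control hairpin arrays and at 7.38, 7.81 and 8.09 in the miR-302 arrays. It was 3.15-fold lower (log2 change −1.66 ± 0.17 SE, limma adjusted p = 0.00223). Ephx1, which encodes microsomal epoxide hydrolase and comes next, stood at 9.74, 9.63 and 9.62 and at 8.57, 8.02 and 7.82, 2.88-fold lower (log2 change −1.53 ± 0.18 SE, limma adjusted p = 0.00358). Neither gene's groups overlap, and both were called whichever array was left out.

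On the other side of the pair, Sde2, a gene of splicing and genome maintenance, and Acbd3, which encodes a Golgi protein, changed by −0.04 ± 0.08 and −0.03 ± 0.07 (SE) on the log2 scale and were not called. Mixl1, a homeobox gene switched on by Nodal in the embryo, was also not called, with 6.57, 6.44 and 6.44 in the control and 6.24, 6.28 and 6.43 in the miR-302 arrays (log2 change −0.17 ± 0.08 SE). Lin9, a subunit gene of the DREAM cell cycle complex, fell by 0.31 on the log2 scale (limma adjusted p = 0.0218), a call that, with an array left out, was made only without miR-302 replicate 1. Beyond Ephx1, 9130409I23Rik changed by −0.16 ± 0.17 and Nvl, a ribosome biogenesis gene, by 0.22 ± 0.07 (SE), and neither was called.

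**Figure D2:**
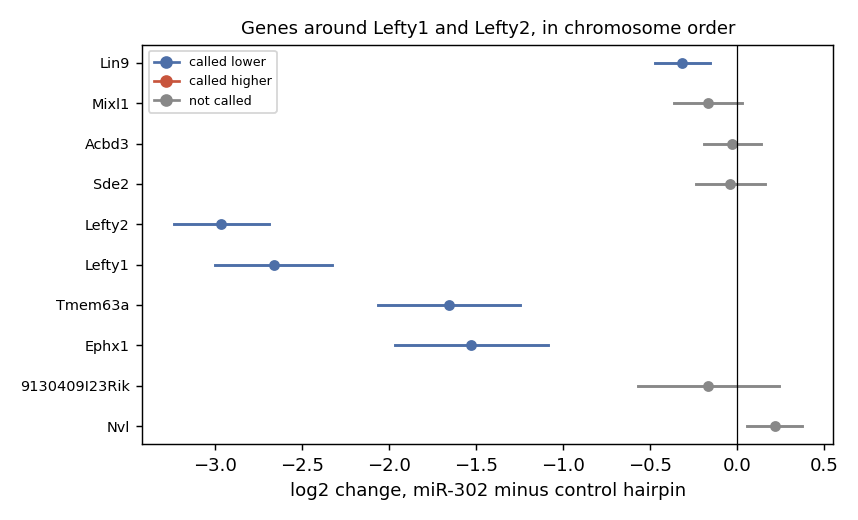
Log2 change with miR-302 (horizontal axis, mean difference with its 95% interval from limma) of Lefty2, Lefty1 and the 4 nearest measured genes on each side, from top to bottom in chromosome order. Tmem63a and Ephx1, directly after Lefty1, sit at −1.66 and −1.53, while Sde2 and Acbd3, directly before Lefty2, sit near 0.

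The genes with the profile most like each Lefty gene were found by the root mean square difference over the 6 arrays, after each profile was centred on its own control mean. For Lefty2 the nearest was Ccnd2, which encodes cyclin D2 (difference 0.21), followed by Mirlet7c-2, a let-7 gene (0.24), Igfbp7, which encodes a secreted IGF-binding protein (0.26), the atypical cadherin gene Fat2 (0.30) and Lefty1 (0.30). For Lefty1 they were Tspo2, a translocator protein gene (0.22), Igfbp7 (0.25), Lgals3bp, which encodes a secreted galectin-binding glycoprotein (0.28), Cpe, which encodes carboxypeptidase E (0.30), and Lefty2 (0.30). Their own log2 changes ran from −3.16 for Ccnd2 to −2.31 for Cpe. That of Lgals3bp was −2.35 on the row used and −1.51 on the mean of its rows. With 2 groups of 3 arrays, this likeness mostly reflects the size of the fall. Igfbp7 stands in both lists, and each Lefty gene is at place 5 for the other.

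Of the ligands, Gdf3, which encodes a Nodal-related ligand expressed in pluripotent cells, stood at 11.73, 11.69 and 11.68 in the control hairpin arrays and at 11.48, 11.23 and 11.28 in the miR-302 arrays. The groups did not overlap, and the difference was small beside that of the Lefty genes. The log2 change was −0.37 ± 0.09 (SE; limma adjusted p = 0.0300). It was −0.44 without miR-302 replicate 1 (adjusted p = 0.00523) and lost its call without any 1 of the other 5 arrays (adjusted p up to 0.104).

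Nodal itself stood at 9.62, 9.58 and 9.62 in the control hairpin arrays and at 9.59, 9.01 and 9.04 in the miR-302 arrays. Replicates 2 and 3 lay below the controls, while replicate 1 lay among them, so the groups overlap. The log2 change was −0.39 ± 0.16 (SE) and was not called (limma adjusted p = 0.147). Without miR-302 replicate 1 it was −0.58 and was called lower (adjusted p = 0.00195). With array weights, which let that array count less, it was −0.53 (adjusted p = 0.00988). Without any 1 of the other 5 arrays it was not called.

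Tdgf1, the co-receptor gene and also 1 of the 8 ESC markers, stood at 12.55, 12.52 and 12.52 in the control hairpin arrays and at 12.88, 12.56 and 12.59 in the miR-302 arrays. The miR-302 values all lay above the controls, replicates 2 and 3 by little. The log2 change of 0.15 ± 0.10 (SE), with a 95% interval of −0.09 to 0.38, was not called (limma adjusted p = 0.385), and without miR-302 replicate 1 it was 0.05 (adjusted p = 0.654).

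Of the receptor genes, Acvr1b was called lower and Acvr2a and Acvr2b were not called. Acvr1b, which encodes the type I receptor ALK4, stood at 9.47, 9.53 and 9.41 in the control hairpin arrays and at 8.91, 8.90 and 8.79 in the miR-302 arrays. The groups lay well apart with a small spread in each. The log2 change was −0.60 ± 0.07 (SE), with a 95% interval of −0.78 to −0.43 (limma adjusted p = 0.00359), and between −0.63 and −0.57 whichever array was left out.

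The type II receptor gene Acvr2b stood at 8.01, 8.33 and 8.32 and at 7.75, 8.15 and 8.02, with replicate 1 the lowest in both groups and an overlap between them. Its log2 change of −0.25 ± 0.14 (SE), with a 95% interval of −0.57 to 0.08, was not called (limma adjusted p = 0.281), and without miR-302 replicate 1 it was −0.13 (adjusted p = 0.489). Acvr2a, the other type II receptor gene, stood at 7.60, 7.73 and 7.81 and at 7.60, 7.62 and 7.78, so the groups overlap almost entirely. Its log2 change was −0.05 ± 0.09 (SE), with a 95% interval of −0.26 to 0.16 (adjusted p = 0.781). Whether Acvr1b changed more than Acvr2a or Acvr2b was not tested.

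Of the feedback genes, Smad7 was called and Skil was not. Smad7, which encodes an inhibitory SMAD that blocks type I receptors, stood at 10.46, 10.43 and 10.62 in the control hairpin arrays and at 10.93, 10.84 and 10.82 in the miR-302 arrays. It was higher in all 3 miR-302 arrays than in any control. The log2 change was 0.36 ± 0.08 (SE; limma adjusted p = 0.0269). The fits without control hairpin replicates 1 and 2 and miR-302 replicates 2 and 3, each left out alone, did not call it (adjusted p up to 0.0976), while the log2 change stayed between 0.32 and 0.42 whichever array was left out. Skil, which encodes the SMAD co-repressor SnoN, stood at 8.11, 8.41 and 8.36 and at 7.70, 8.20 and 8.22. The groups overlap, and the log2 change of −0.25 ± 0.16 (SE), with a 95% interval of −0.64 to 0.13, was not called (limma adjusted p = 0.350). Without miR-302 replicate 1 it was −0.08.

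**Figure D3:**
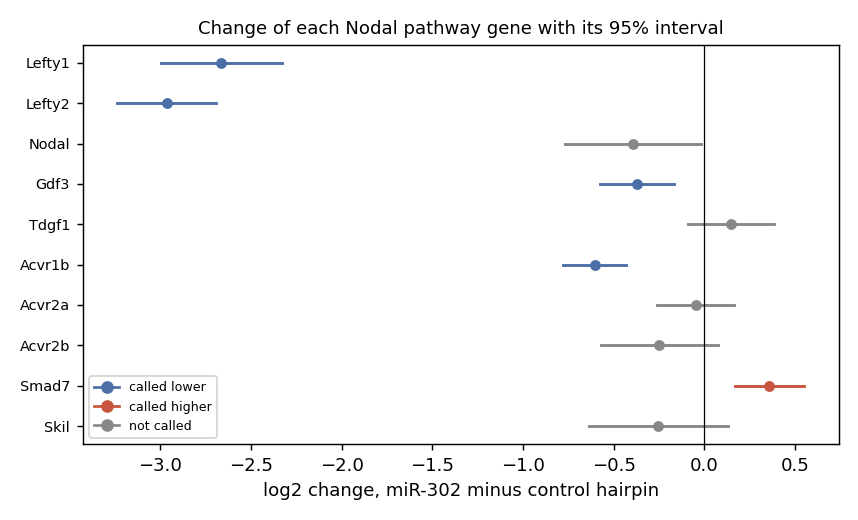
Log2 change with miR-302 of the 10 Nodal pathway genes (horizontal axis, mean difference of 3 against 3 arrays with its 95% interval from limma), coloured by call. Lefty1, Lefty2, Acvr1b and Gdf3 are called lower, Smad7 is called higher, and the other 5 are grey, not called. Of these 5, only Nodal has an interval that does not reach 0.

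In 5 of the 10 genes (Lefty1, Nodal, Gdf3, Tdgf1 and Skil), miR-302 replicate 1 lay outside the other miR-302 arrays by more than the whole range of the controls. The same held for 32.6% of all genes. Replicate 1 was the highest of the miR-302 arrays for Nodal, Gdf3 and Tdgf1 and the lowest for Lefty1 and Skil. For Nodal the gap to the nearer of the other miR-302 arrays was 0.55 against a control range of 0.04, and for Skil it was 0.50 against 0.30. For Lefty2 it was 0.01 against 0.30. Between the groups, the values of 4 of the 10 genes lay wholly lower with miR-302 and those of 2, Smad7 and Tdgf1, wholly higher, where 19.0% of all genes lay wholly lower and 16.8% wholly higher.

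RefSeq promoter windows, from 250 bases before a gene's start to 50 after it, were matched for 5 of the 10 genes: Nodal, Tdgf1, Acvr1b, Acvr2a and Acvr2b. They were searched on both strands for the FoxH1 motif AATNNACA, the SMAD motif CAGAC and the TATA box TATAAA, and in these 5 windows no 2 matches overlapped. These letters occur in 12.2%, 49.6% and 13.6% of 32851 windows of this length. The Tdgf1 window holds 2 FoxH1 matches, starting 127 and 101 bases before the gene's start, with a SMAD match between them that starts 113 bases before it. It is shown because it was the only one of the 5 windows with a FoxH1 match, and the gene's change was not called. The window is chr9:110946109-110946408 on the minus strand (GRCm38.p6), with the matches in capitals.
Tdgf1 window: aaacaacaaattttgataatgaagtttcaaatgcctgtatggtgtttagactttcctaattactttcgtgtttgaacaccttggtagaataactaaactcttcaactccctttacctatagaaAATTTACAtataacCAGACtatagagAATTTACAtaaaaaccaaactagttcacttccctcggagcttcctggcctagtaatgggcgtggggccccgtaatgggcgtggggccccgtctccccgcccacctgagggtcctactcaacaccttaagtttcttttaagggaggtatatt
The Acvr1b window, chr15:101173822-101174121 on the plus strand, is shown because this gene was the only called gene of the 10 with a window. It holds none of the 3 motifs, 79.7% of its bases are G or C against a median of 52.7% over all windows, and it has 51 CG pairs against a median of 7. The uncalled receptor genes Acvr2a and Acvr2b have like windows, with 80.3% and 73.3% G or C and 54 and 27 CG pairs. The Nodal and Tdgf1 windows have 54% and 41.7% G or C and 5 and 7 CG pairs.
Acvr1b window: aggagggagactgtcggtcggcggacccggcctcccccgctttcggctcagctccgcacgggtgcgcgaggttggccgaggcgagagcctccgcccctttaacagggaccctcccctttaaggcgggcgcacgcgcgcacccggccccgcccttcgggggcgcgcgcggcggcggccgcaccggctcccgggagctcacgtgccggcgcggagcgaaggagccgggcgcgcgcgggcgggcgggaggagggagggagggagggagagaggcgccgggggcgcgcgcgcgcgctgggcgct
The Acvr2a and Acvr2b windows hold 1 SMAD match each, and the Nodal window holds none of the 3 motifs. A match describes the letters of these windows and says nothing of binding.

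Beyond the 10 genes, 40 other genes of Nodal and activin signalling were listed, of which 36 were measured. Of these 6 were higher (16.7%, against 7.18% of all genes), 3 lower (8.33%, against 9.25%) and 27 not called, and their median log2 change was 0.03. With miR-302 replicate 1 omitted, 5 of them were higher and 5 lower, and with another array omitted 2 to 4 were higher and 1 was lower. None of the 5 genes that carry the signal was called. Smad2, which encodes a SMAD activated by the receptors, stood between 10.27 and 10.30 in the control and between 10.27 and 10.35 in the miR-302 arrays. Smad4, the common partner, changed by 0.11 ± 0.08 (SE). Smad3 changed by −0.28 ± 0.09 (SE; limma adjusted p = 0.0814), and Foxh1, the DNA-binding partner, by 0.23 ± 0.07 (SE; limma adjusted p = 0.0806). Both were called, Smad3 lower and Foxh1 higher, without miR-302 replicate 1 (adjusted p = 0.0466 and 0.0261).

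Among 5 measured genes of ligands and their processing, 2 were lower and none higher, where 9.25% of all genes were lower and 7.18% higher. Both of the lower genes encode inhibin subunits. Inha, the inhibin alpha subunit gene, stood at 7.60, 7.54 and 7.64 in the control hairpin arrays and at 6.61, 6.21 and 6.35 in the miR-302 arrays, a log2 change of −1.20 ± 0.11 (SE; limma adjusted p = 0.00150). Inhbb, which encodes the beta B subunit shared by activins and inhibins, stood at 9.50, 9.51 and 9.47 and at 9.18, 8.61 and 8.57, again with replicate 1 nearest to the controls. Its log2 change was −0.71 ± 0.16 (SE; adjusted p = 0.0299), and among the fits with an array left out it was called only without miR-302 replicate 1 (adjusted p up to 0.0947 in the others). Inhba and the proprotein convertase genes Furin and Pcsk6 were not called, nor was any of the 4 genes listed as other receptors and co-receptors. Tmeff1 was counted in that list and not among the antagonists.

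Of 14 measured antagonists and dampers, 2 were higher, 1 lower and 11 not called, where 7.18% of all genes were higher and 9.25% lower. Fst, the gene of follistatin, which binds activins outside the cell, stood at 6.13, 6.19 and 6.27 in the control hairpin arrays and at 6.79, 6.73 and 6.92 in the miR-302 arrays (log2 change 0.62 ± 0.08 SE, limma adjusted p = 0.00461). Fstl3, a related gene, stood at 6.80, 6.84 and 6.88 and at 7.24, 7.59 and 7.61 (0.64 ± 0.11 SE, adjusted p = 0.0117, and 0.0527 without control hairpin replicate 1). Neither gene's groups overlap. Bambi, a pseudoreceptor gene, changed by −0.42 ± 0.09 (SE; adjusted p = 0.0263), a call kept without miR-302 replicate 1 and lost without any 1 of the other arrays.

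Of 8 measured target genes of the embryo, 4 were higher, none lower and 4 not called, where 7.18% of all genes were higher, and 2 of the 4 calls were lost whichever array was left out. Eomes, a T-box gene of mesendoderm that is also expressed in trophoblast, stood at 5.57, 5.61 and 5.75 in the control hairpin arrays and at 6.88, 7.19 and 6.93 in the miR-302 arrays, a log2 change of 1.36 ± 0.10 (SE; limma adjusted p = 0.000845). Otx2, a homeobox gene of the primed state and the anterior embryo, changed by 0.77 ± 0.14 (SE; adjusted p = 0.0150), with 9.34 in miR-302 replicate 1 against 8.88 and 8.80 in the others. Its call was lost without any 1 control array, and it was 0.60 without miR-302 replicate 1. Lhx1 and Foxa2 changed by 0.48 ± 0.12 and 0.25 ± 0.07 (SE; adjusted p = 0.0409 and 0.0497), and each lost its call without any 1 of the 6 arrays. Lhx1 stood at 4.78, 4.68 and 4.41 in the control hairpin arrays and at 5.27, 5.06 and 4.99 in the miR-302 arrays. These levels lie below 6.18, the highest array median over the genes analysed, and may be background. The mesendoderm genes Gsc and Mixl1 and the endoderm gene Sox17 were not called, with log2 changes of −0.22 ± 0.08, −0.17 ± 0.08 and 0.00 ± 0.09 (SE). The trophectoderm markers given above were higher on the same arrays, and their part in the change of Eomes was not tested.

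**Figure D4:**
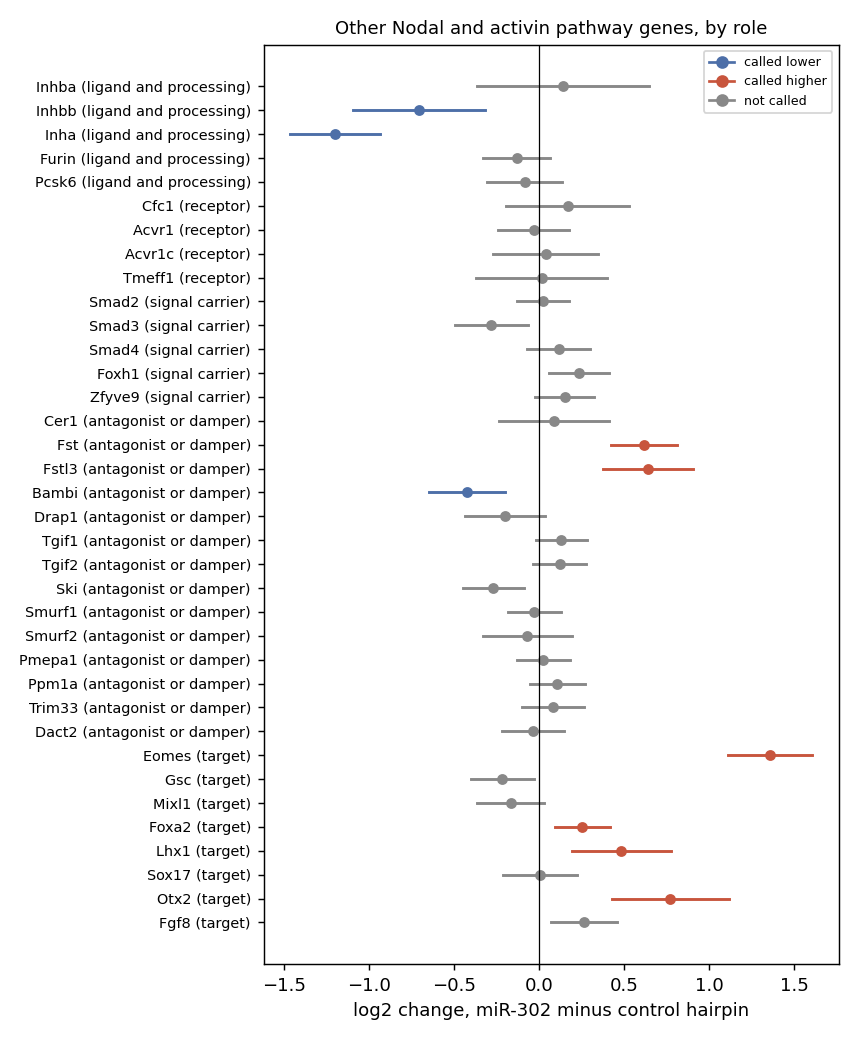
Log2 change with miR-302 (horizontal axis, mean difference with its 95% interval from limma) of 36 other Nodal and activin pathway genes. Brackets give the role under which each was listed. Inha lies lowest and Eomes highest, Fst and Fstl3 lie above 0, and the signal carriers are all grey, not called.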

How the data were processed

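Total RNA of the 6 samples was biotin-labelled and measured on expression arrays, per the labels' protocols. The authors deposited a table of 33649 rows of log2 expression after RMA, per the submitters' processing notes; its version, the software and build: not given in the sources used here. Base 2 is what RMA gives. RMA equalises the distributions of the arrays, which hides any change common to most genes. No detection calls were used, and low levels may be background.

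Rows naming a single gene in the platform annotation (23521, with 1814 naming several and 8314 none) were kept, and each of 22180 genes was read from its row of highest mean level. The test was limma's moderated linear model (version 3.58.1, R 4.3.3, two-sided, no trend) with Benjamini-Hochberg adjustment at 0.05, and the fit was tested on simulated data. The members, lists and tests were chosen with earlier results of these data known. Named were the members, the called genes of the other list with Smad2, Smad3, Smad4 and Foxh1, the neighbours of the Lefty pair, and the 5 genes most alike to each Lefty gene, provisional gene models passed over in this last search. Gsc, Sox17, Inhba, Furin, Pcsk6, Tmeff1 and the markers are named beside that rule. Of the other list, 4 genes were not analysed here, among them Gdf1 and Dand5, which share a row with another gene. No columns were left without a sample (0). Same-numbered arrays did not deviate together (correlations 0.01 to 0.02), so numbers were not taken as pairs. The alternatives were a replicate block, leaving out each array, array weights, a filter at the median level, a robust prior with intensity trend, median centring, quantile normalization and averaging a gene's rows.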

Additional observations from a re-analysis of the deposited data

How the results depend on the processing

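Of the 5 called Nodal pathway genes, Lefty1, Lefty2 and Acvr1b were called under all 13 alternatives. Members called lower numbered 4, and 3 to 5 with 1 array left out. The 1 called higher, Smad7, was lost (0) with the replicate block, and 0 or 1 were higher with 1 array left out. Of the 36 other pathway genes, 6 were higher and 3 lower. With 1 array left out 2 to 5 were higher and 1 to 5 lower, and 5 were lower with genes under the median level left out (28 tested) and 5 with array weights. Over all genes, 1592 were higher and 2051 lower. The replicate block gave 964 and 1329, although the pairing check found no pairs, and it did not call Gdf3, Smad7, Inhbb, Foxa2 and Lin9 (adjusted p = 0.0604, 0.0756, 0.0509, 0.114 and 0.0730). Foxa2 was also not called with the robust prior and intensity trend, median centring, quantile normalization or averaged rows (limma adjusted p = 0.0832, 0.0719, 0.0601 and 0.0501). Lhx1 was not called with quantile normalization (limma adjusted p = 0.0553). Array weights gave 2617 higher. Leaving out 1 array gave 685 to 2484 higher and 1043 to 2911 lower, with the highest counts without miR-302 replicate 1. The changes that turned sign were near 0 and never called: Acvr2a with quantile normalization (0.012), and, with 1 array left out, Acvr2a (−0.10 to 0.0017), Acbd3 (−0.052 to 0.0083), Sde2 (−0.087 to 0.010) and 9130409I23Rik (−0.26 to 0.012). The cause was not tested. Testing every row of a member on its own gave no other value, as each has 1 row.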
